A study of Mus musculus with 12 samples.

Results

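The carbonic anhydrase genes were followed through cells sorted from mouse colon adenomas on an Affymetrix expression array. The members are the genes Car1, Car2, Car3, Car4, Car7, Car8, Car9, Car12 and Car13, named by their symbols in the array annotation. They are 9 of the 17097 gene symbols with a probe set of their own, and 18 probe sets measure them. Cells had been sorted by 2 markers: the RNA-binding protein Mex3a and Lgr5, which is a receptor found on intestinal stem cells. The populations were double positive (Mex3a+ Lgr5+), single positive (Mex3a+ Lgr5- or Mex3a- Lgr5+) and double negative (Mex3a- Lgr5-). Each of 3 mice (MKL347, MKL358 and MKL367) gave 1 array per population, so every population has 3 arrays and the mice are the replicates. All mice carry the genotype ki/+, which the labels do not explain, and each replicate pools cells of several adenomas of 1 mouse. Pools held 500 cells for mouse MKL358 and 2000 cells for the other mice. Values are log2 signals. They are compared for the same probe set between populations and never between probe sets.

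Carbonic anhydrases catalyse the reversible hydration of carbon dioxide to bicarbonate and a proton. In the colon they feed the exchangers that take up salt in return for bicarbonate and protons, and mature surface colonocytes are rich in them. Car1, Car2, Car3, Car7 and Car13 are cytosolic enzymes, and Car4 is tethered to the outer face of the apical membrane. Car9 and Car12 cross the plasma membrane with the catalytic domain outside the cell, and Car9 is a classic target of the hypoxia-inducible factor HIF. Car8 is a family protein without catalytic activity that binds an inositol trisphosphate receptor.

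RefSeq promoter windows (build GRCm38.p6, 250 bases before to 50 bases from the start) were on hand for 4 of the 9 members, Car4, Car7, Car9 and Car12. The windows of the membrane-bound members are shown because all 3 of these genes fell in Mex3a+ cells. Each window is written 5′ to 3′ on its gene's strand. Both strands were searched for 3 motifs, none of which overlapped another here: ACGTG, the core that HIF binds, TTTAT, a core bound by CDX factors, and CTTTGA, a core bound by TCF/LEF factors. Capitals mark the matches.
Car4, chr11:84957504-84957803, plus strand: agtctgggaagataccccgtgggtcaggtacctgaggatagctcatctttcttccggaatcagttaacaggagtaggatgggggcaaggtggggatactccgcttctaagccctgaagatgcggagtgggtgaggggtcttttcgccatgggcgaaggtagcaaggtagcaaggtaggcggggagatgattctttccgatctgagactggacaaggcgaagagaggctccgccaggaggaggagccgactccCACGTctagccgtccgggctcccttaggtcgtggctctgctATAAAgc
Car9, chr4:43506776-43507075, plus strand: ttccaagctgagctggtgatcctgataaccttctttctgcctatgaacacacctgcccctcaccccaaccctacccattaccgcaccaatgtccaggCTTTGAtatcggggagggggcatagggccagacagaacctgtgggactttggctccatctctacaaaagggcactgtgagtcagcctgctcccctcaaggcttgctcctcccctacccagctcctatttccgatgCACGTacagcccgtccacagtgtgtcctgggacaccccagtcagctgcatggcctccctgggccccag
Car12, chr9:66713436-66713735, plus strand: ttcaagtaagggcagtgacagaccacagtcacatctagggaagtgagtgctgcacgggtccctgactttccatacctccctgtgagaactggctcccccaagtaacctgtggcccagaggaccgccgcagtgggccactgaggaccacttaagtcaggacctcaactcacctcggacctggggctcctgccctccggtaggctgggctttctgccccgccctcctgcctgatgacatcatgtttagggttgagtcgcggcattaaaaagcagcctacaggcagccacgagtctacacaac
The Car9 window held the HIF core, read as CACGT on the printed strand, from position -18 relative to the start, and the TCF/LEF core from position -153. The Car4 window held the HIF core from position 3 and the CDX core, read as ATAAA on the printed strand, from position 44. The Car12 window held none of these letters, nor did the 3 windows of Car7. Of all 32851 promoter windows, 19.6% held ACGTG, 40.01% held TTTAT and 16.0% held CTTTGA. A match describes the letters in the window and is not evidence of binding.

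The array median lay between 4.86 and 4.92. Mex3a transcript was higher by 0.69 (log2, SE 0.12, limma adjusted p = 0.00162) in Mex3a+ cells, and Lgr5 transcript by 1.55 (SE 0.14, limma adjusted p = 0.000872) in Lgr5+ cells. Lgr5 transcript was also higher in Mex3a+ cells, by 0.82 (SE 0.14, limma adjusted p = 0.00139), so the Mex3a comparison differs in both markers. The Mex3a- Lgr5+ array of mouse MKL367 stood apart in fibroblast markers, with a mean log2 signal of 5.69 over 8 genes, against 4.42 to 4.69 on the other 11 arrays. Without it the members called below were 6 for the Mex3a average, 5 within Lgr5+ cells, 6 within Lgr5- cells, 0 for the Lgr5 average and 2 for the single positive populations. For each gene the probe set with the highest mean was tested with limma, after a filter that asked for a log2 signal above 4.40 on at least 3 arrays. This left 12595 genes, and calls were made at a limma adjusted p under 0.05 over all of them. All 9 members passed the filter, with 12 of their 18 probe sets. The tested probe sets of Car1, Car2, Car4, Car7, Car9, Car12 and Car13 were above that level on all 12 arrays. Car8 was above it on 10 arrays and Car3 on 3, so both sat at the floor of what was tested. An average effect sets 6 arrays against 6. The main fit did not pair the arrays by mouse, and an alternative fit took the mouse as a block.

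The comparison of Mex3a+ with Mex3a- cells asked how the family differed with Mex3a status at either Lgr5 status. 6 of the 9 members were lower in Mex3a+ cells, namely Car1, Car2, Car4, Car9, Car12 and Car13, and 0 were higher. Of all genes tested, 17.3% were called lower and 9.91% higher. The members were chosen with earlier results of these data known, so this count is a description. The falls ran between 9.31-fold for Car1 and 1.57-fold for Car12. The median log2 difference over the 9 members was -0.81, against -0.01 over all tested genes. Fewer cells of a type that carries these transcripts and less transcript per cell cannot be told apart in such pools.

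Among the cytosolic enzymes, Car1 moved most. Its log2 signal was 5.41, 6.20 and 5.56 in Mex3a+ Lgr5+ cells and 8.23, 7.26 and 7.58 in Mex3a+ Lgr5- cells of mice MKL347, MKL358 and MKL367. In the same mice it was 9.77, 9.72 and 9.30 in Mex3a- Lgr5+ cells and 10.30, 10.21 and 10.26 in Mex3a- Lgr5- cells. Every Mex3a+ array was thus below every Mex3a- array, with the Mex3a+ Lgr5+ arrays lowest of all. The average difference was -3.22 (SE 0.17, limma adjusted p = 1.49e-06). Within the 3 mice it was between -3.24 and -3.21. Ordered from the most negative difference, Car1 stood at place 14 of the 12595 genes.

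Car13, a cytosolic relative of Car1, had a log2 signal of 5.32, 6.17 and 4.97 in Mex3a+ Lgr5+ cells and 6.01, 6.11 and 5.03 in Mex3a+ Lgr5- cells of the mice in the same order. It reached 7.08, 7.22 and 6.52 in Mex3a- Lgr5+ cells and 8.11, 7.73 and 7.21 in Mex3a- Lgr5- cells. The Mex3a+ and Mex3a- arrays did not overlap, although mouse MKL367 was the lowest in 4 of 4 populations. The average difference was -1.71 (SE 0.25, 3.28-fold, limma adjusted p = 0.000623), and within mice it was between -1.93 and -1.34. Of the other probe sets of Car13, both below the filter, 1421308_PM_at differed by -0.65 (SE 0.12, limma adjusted p = 0.0025 without the filter) and 1439620_PM_at by -0.02 (SE 0.03). The mean of the 3 probe sets gave -0.80, which still passed.

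Car2, a fast and widespread enzyme, had a log2 signal of 7.75, 7.50 and 7.003 in Mex3a+ Lgr5+ cells and 8.33, 7.98 and 7.57 in Mex3a+ Lgr5- cells. It was 8.92, 8.35 and 8.49 in Mex3a- Lgr5+ cells and 9.61, 9.03 and 9.21 in Mex3a- Lgr5- cells. The highest Mex3a+ array, at 8.33, lay just below the lowest Mex3a- array, at 8.35. Within every mouse the populations kept 1 order, with Mex3a+ Lgr5+ lowest and Mex3a- Lgr5- highest. The average difference was -1.25 (SE 0.17, 2.37-fold, limma adjusted p = 0.000425).

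The remaining cytosolic members did not pass the test. Car3, an enzyme of low activity known from muscle and fat, lay between 4.13 and 4.55 in Mex3a+ cells and between 4.14 and 4.64 in Mex3a- cells (difference -0.02, SE 0.10, limma adjusted p = 0.927). The other 3 probe sets of Car3 did not pass the filter and differed by 0.04 to 0.05. Car7, best known from neurons, lay between 5.82 and 6.18 in Mex3a+ cells and between 5.60 and 6.01 in Mex3a- cells (difference 0.10, SE 0.09, limma adjusted p = 0.433). The groups overlapped for both genes. In the gene table of GRCm38.p6, Car13, Car1, Car3 and Car2 follow each other as protein-coding neighbours on chromosome 3. Car13, Car1 and Car2 fell in Mex3a+ cells, while Car3, placed between Car1 and Car2, did not pass the test.

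Car8, the member without catalytic activity, lay between 4.28 and 4.65 in Mex3a+ cells and between 4.43 and 4.93 in Mex3a- cells (difference -0.17, SE 0.08, limma adjusted p = 0.148). These groups overlapped and lay close to the filter level. Of the inositol trisphosphate receptor genes followed, Itpr2 was higher in Mex3a+ cells (0.62, SE 0.19, limma adjusted p = 0.0283). Itpr3 had a difference of -0.20 (limma adjusted p = 0.0864, and 0.031 with the mouse as a block). Itpr1 was not among them, and binding of Car8 to either receptor was not tested.

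**Figure D1:**
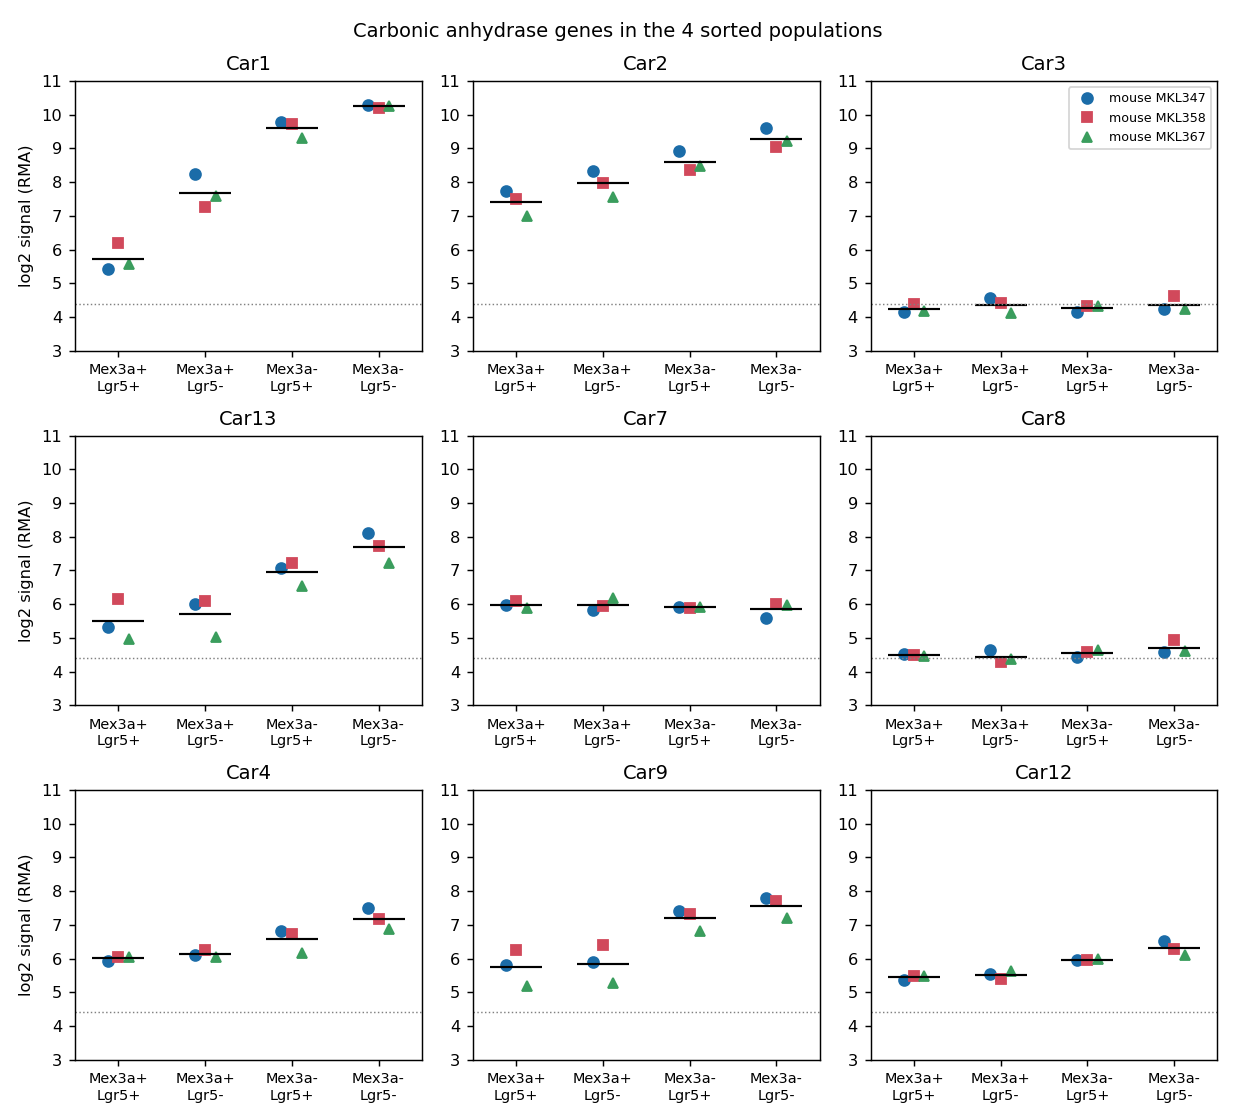
Log2 signal of the tested probe set of each of the 9 carbonic anhydrase genes in the 4 sorted populations. Points are single arrays, shaped and coloured by mouse, bars are means of 3 mice and the dotted line is the filter level of 4.40. Car1 means climb over 5.72, 7.69, 9.60 and 10.26 in the order shown, while Car3 and Car7 stay level. Car8 means lie between 4.44 and 4.71, close to the filter level.

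Of the membrane-bound members, Car9 had a log2 signal of 5.80, 6.24 and 5.18 in Mex3a+ Lgr5+ cells and 5.88, 6.40 and 5.26 in Mex3a+ Lgr5- cells of mice MKL347, MKL358 and MKL367. It was 7.41, 7.33 and 6.83 in Mex3a- Lgr5+ cells and 7.80, 7.70 and 7.19 in Mex3a- Lgr5- cells. The Mex3a groups did not overlap, the Lgr5 groups lay close together at either Mex3a status, and mouse MKL367 was lowest in 4 of 4 populations. The average Mex3a difference was -1.58 (SE 0.22, 2.99-fold, limma adjusted p = 0.000489), and between -1.79 and -1.19 within mice.

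Car12, the other transmembrane enzyme, had a log2 signal of 5.37, 5.49 and 5.50 in Mex3a+ Lgr5+ cells and 5.54, 5.38 and 5.63 in Mex3a+ Lgr5- cells. It was 5.97, 5.95 and 5.98 in Mex3a- Lgr5+ cells and 6.52, 6.29 and 6.10 in Mex3a- Lgr5- cells. All Mex3a+ arrays were below all Mex3a- arrays. The difference was small but tight, at -0.65 (SE 0.08, 1.57-fold, limma adjusted p = 0.000243). A second probe set, 1446517_PM_at, gave -0.66 (SE 0.12, limma adjusted p = 0.0021 over all probe sets), again with no overlap. It was above the filter level on 8 arrays only. Its signal lay between 4.11 and 4.63 in Mex3a+ cells, around that level, and between 4.74 and 5.60 in Mex3a- cells. Its Mex3a+ values thus sat at the floor, so the size of its difference is uncertain and it is weak support for the tested probe set.

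The probe sets of Car4, the apical enzyme of colonocytes, differed widely in size. The tested one, 1418094_PM_s_at, was 5.92, 6.06 and 6.04 in Mex3a+ Lgr5+ cells and 6.09, 6.24 and 6.04 in Mex3a+ Lgr5- cells, against 6.83, 6.72 and 6.18 in Mex3a- Lgr5+ cells and 7.49, 7.18 and 6.87 in Mex3a- Lgr5- cells. Its groups overlapped through a single array, Mex3a- Lgr5+ of mouse MKL367, the one with the high fibroblast markers. The average difference was -0.81 (SE 0.13, 1.76-fold, limma adjusted p = 0.000844), and -0.91 without that array. The other probe set, 1448949_PM_at, was 4.00, 5.03 and 4.83 in Mex3a+ Lgr5+ cells and 4.62, 4.52 and 4.58 in Mex3a+ Lgr5- cells, against 6.76, 7.56 and 5.79 in Mex3a- Lgr5+ cells and 8.47, 7.88 and 7.56 in Mex3a- Lgr5- cells. Here the groups did not overlap and the difference was -2.74 (SE 0.28, 6.67-fold, limma adjusted p = 8.5e-05 over all probe sets). Both share the direction, and the size of the Car4 fall is uncertain: the mean of the 2 probe sets gave -1.77.

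**Figure D2:**
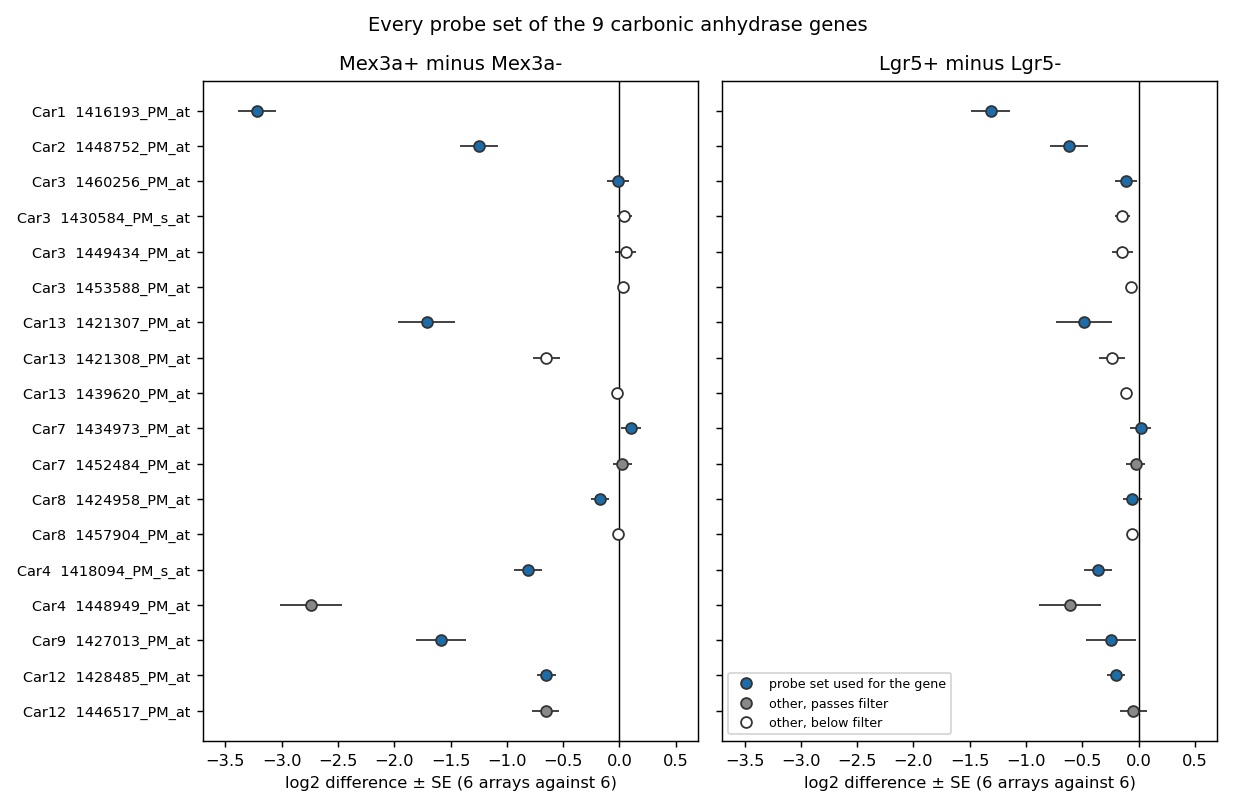
Log2 difference with limma's standard error for all 18 probe sets of the 9 genes, Mex3a+ minus Mex3a- on the left and Lgr5+ minus Lgr5- on the right, 6 arrays against 6. The probe sets of Car4 stand apart at -0.81 and -2.74 on the left, those of Car12 lie together at -0.65 and -0.66, and open points did not pass the filter.

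In all, 5 of the 9 members (Car1, Car2, Car9, Car12 and Car13) had every Mex3a+ array below every Mex3a- array, which held for 9.02% of all genes. 4 of the members were called lower by at least 2-fold, against 2.01% of all genes. The 6 calls held without each mouse and each array and under all other settings tried.

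Within Lgr5+ cells, the question was whether Mex3a status still parted the family when only Mex3a+ Lgr5+ and Mex3a- Lgr5+ cells were set against each other, 3 arrays against 3. 5 of the 9 members were lower, and 4.8% of all genes were called lower. Car1 fell by 3.87 on the log2 scale (SE 0.25, 14.6-fold, limma adjusted p = 3.55e-05). Car2 (-1.17), Car9 (-1.45), Car12 (-0.51) and Car13 (-1.46) were lower at a limma adjusted p between 0.0176 and 0.0303. Car4 had a difference of -0.57 (SE 0.18, limma adjusted p = 0.0756), which passed with the mouse as a block (limma adjusted p = 0.0116), where 13.2% of all genes were called lower. The second Car4 probe set fell by 2.08 (limma adjusted p = 0.0131 over all probe sets). Leaving out mouse MKL347 gave 1 called member and leaving out MKL367 gave 2. The count was also 1 or 2 without single arrays, namely Mex3a- Lgr5+ of mouse MKL358 (2), Mex3a+ Lgr5+ of mice MKL347 (2) and MKL367 (1), and Mex3a- Lgr5+ of mouse MKL347 (1). Car1 kept its call in each of these fits. Such fits have fewer arrays. In the Mex3a average they called 1034 of all genes without MKL347 and 1546 without MKL367, against 3422 with all arrays.

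Within Lgr5- cells, Mex3a+ Lgr5- was set against Mex3a- Lgr5-. The same 6 members as in the average were lower, and 11.7% of all genes were called lower. Car1 differed by -2.57 (SE 0.25, 5.92-fold, limma adjusted p = 0.000123), Car13 by -1.97 (SE 0.36), Car9 by -1.71 (SE 0.31), Car2 by -1.32 (SE 0.24), Car4 by -1.05 (SE 0.18) and Car12 by -0.79 (SE 0.11). Each of the other 5 had a limma adjusted p between 0.00155 and 0.00444, and each was lower in 3 of 3 mice. Leaving out mouse MKL347 left 2, Car1 and Car2, in a fit with fewer arrays.

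The interaction tested whether the Mex3a difference itself depended on Lgr5 status. 0 of the 9 members and 0 of the 12595 genes (0%) passed with limma, while 1 member and 359 genes had an unadjusted p under 0.05. The block fit also passed 0 members and 0% of all genes, with 2 members and 1078 genes under 0.05 before adjustment. The member closest to the threshold was Car1, whose Mex3a difference was -4.36, -3.52 and -3.74 in Lgr5+ cells and -2.07, -2.95 and -2.68 in Lgr5- cells of mice MKL347, MKL358 and MKL367. The fall was deeper in Lgr5+ cells in 3 of 3 mice, by 1.31 on average (SE 0.35), but this did not pass (limma adjusted p = 0.99997, and 0.351 with the mouse as a block). For the tested probe sets of Car2, Car4, Car9, Car12 and Car13 the interaction was of the opposite sign, between 0.15 and 0.51, and did not pass. The second probe sets had 1.31 (SE 0.55) for Car4 and 0.53 (SE 0.24) for Car12. Both were above 0 in 3 of 3 mice and did not pass with or without the block. Their Mex3a+ means lay close to the filter level.

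**Figure D3:**
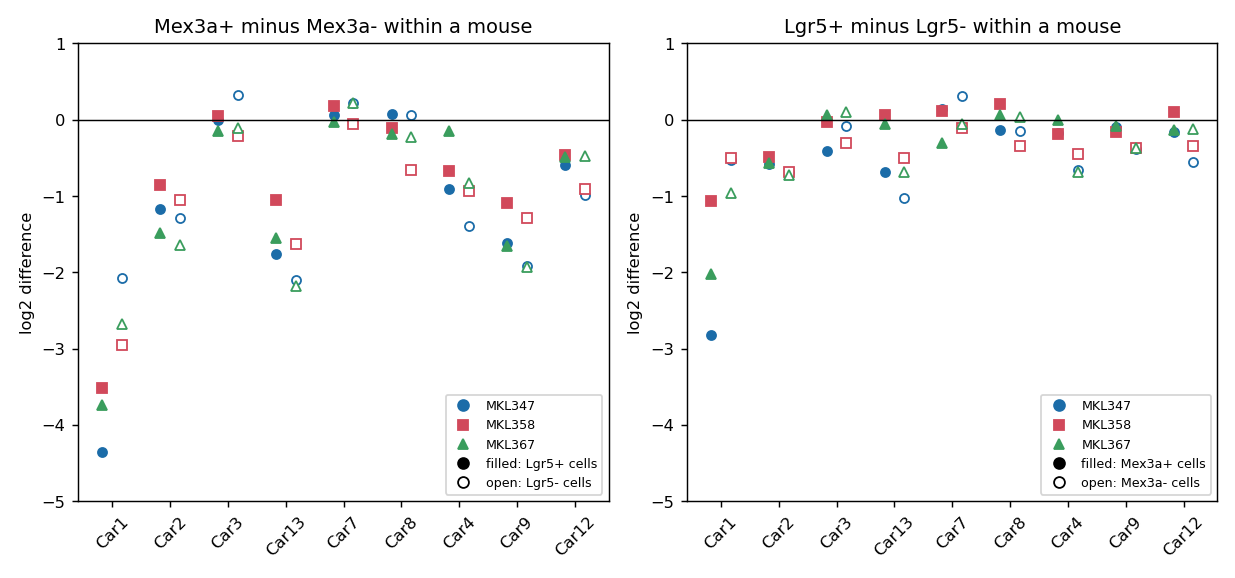
Log2 differences within each mouse for the 9 genes, Mex3a+ minus Mex3a- on the left (filled in Lgr5+ cells, open in Lgr5- cells) and Lgr5+ minus Lgr5- on the right (filled in Mex3a+ cells, open in Mex3a- cells). Filled Car1 points lie between -4.36 and -3.52 on the left, below the open ones between -2.95 and -2.07, and most points on the right lie near 0.

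The comparison of Lgr5+ with Lgr5- cells asked the same of Lgr5 status. Car1 was lower in Lgr5+ cells by 1.31 on the log2 scale (SE 0.17, 2.49-fold, limma adjusted p = 0.0237), in 3 of 3 mice. It was 1 of the 9 members called, while 0.0397% of all genes, 5 in number, were called at all and 0.00794% lower, which is Car1 itself. The call was lost without mouse MKL347 (limma adjusted p = 0.331), without mouse MKL367 (0.549) and without 9 of the 12 single arrays (0.0522 to 0.0807). With the mouse as a block it held (limma adjusted p = 0.0019), also without each mouse. The Lgr5+ and Lgr5- arrays overlapped for all 9 members, and 0.0397% of all genes had every Lgr5+ array below every Lgr5- array. With the block, Car2 was lower too (-0.62, SE 0.09, limma adjusted p = 0.00431, against 0.367 without the block), where 0.627% of all genes were called lower. The Car2 difference was between -0.64 and -0.58 in the 3 mice. Car13 (-0.48), Car4 (-0.36), Car9 (-0.24) and Car12 (-0.20) had values below 0 in 3 of 3 mice and did not pass in either fit. The second probe sets of Car4 (-0.61) and Car12 (-0.05) were below 0 in 2 of 3 mice.

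Split by Mex3a status, Car1 had an Lgr5 difference of -1.97 (SE 0.25, limma adjusted p = 0.0539) in Mex3a+ cells and of -0.66 (SE 0.25, limma adjusted p = 0.66) in Mex3a- cells. In Mex3a+ cells, limma called 0 of the 9 members and 0% of all genes, although 2 members and 376 genes were under 0.05 before adjustment. Car1 passed there once the mouse entered as a block (limma adjusted p = 0.0167), where 0.0159% of all genes were called lower. In Mex3a- cells limma called 0 members and 0.0318% of all genes, although 4 members and 785 genes were under 0.05 before adjustment. With the block Car2 passed there (-0.70, SE 0.12, limma adjusted p = 0.0164), as 1 of the 0.81% of all genes called lower.

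The single positive populations set Mex3a+ Lgr5- against Mex3a- Lgr5+ cells, the contrast that the study's title names. 3 of the 9 members were lower in Mex3a+ Lgr5- cells, where 4.08% of all genes were called lower. These were Car1 (-1.91, SE 0.25, 3.75-fold, limma adjusted p = 0.00411), Car9 (-1.34, SE 0.31, limma adjusted p = 0.0351) and Car12 (-0.45, SE 0.11, limma adjusted p = 0.0425). Car13 (-1.23), Car2 (-0.63) and Car4 (-0.45) missed the threshold (limma adjusted p 0.0671 to 0.16) and passed with the mouse as a block, where 14.9% of all genes were called lower. The second Car4 probe set fell by 2.13 (limma adjusted p = 0.017 over all probe sets). The count was 0 without mouse MKL367 and 1 without mouse MKL347, in fits with fewer arrays. It was 1 without single arrays, namely Mex3a- Lgr5+ of mouse MKL358, all 3 of mouse MKL347 other than Mex3a- Lgr5-, and Mex3a+ Lgr5- of mouse MKL367.

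The mean levels of the fallen members were then put in order. For the tested probe sets of Car1, Car2, Car4, Car9, Car12 and Car13 the mean signal was lowest in Mex3a+ Lgr5+ cells, then higher in Mex3a+ Lgr5-, Mex3a- Lgr5+ and Mex3a- Lgr5- cells in turn. Car1 had means of 5.72 ± 0.42, 7.69 ± 0.49, 9.60 ± 0.26 and 10.26 ± 0.04 along this order (SD, n = 3 each). Car9 had means of 5.74 ± 0.53, 5.85 ± 0.57, 7.19 ± 0.32 and 7.56 ± 0.33. Within mice its Lgr5 difference was between -0.16 and -0.08 in Mex3a+ cells and between -0.39 and -0.36 in Mex3a- cells, and neither passed with or without the block. The second probe sets turned the order of the Mex3a+ populations, with means of 4.62 in Mex3a+ Lgr5+ and 4.58 in Mex3a+ Lgr5- cells for Car4 and of 4.49 and 4.27 for Car12. These means lay close to the filter level. Between neighbours, the difference of Mex3a+ Lgr5- and Mex3a- Lgr5+ cells passed for Car1, Car9 and Car12, and the other neighbouring differences passed for no member in the fit without the block.

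The array holds 7 further carbonic anhydrase genes. Of these, 5 passed the filter and 1 was called lower, while 17.3% of all genes were. Car5b, a mitochondrial enzyme, averaged 4.61 and 4.64 in the Mex3a+ populations, against 4.95 and 5.41 in the Mex3a- populations. Its difference was -0.55 (SE 0.13, limma adjusted p = 0.00788), with the groups overlapping, and its other probe set had -0.20 (limma adjusted p = 0.102 over all probe sets). Car5a, Car11, Car14 and Car15 had differences between -0.11 and 0.10 and did not pass, and Car6 and Car10 were below the filter.

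Transport genes that handle bicarbonate and protons together with these enzymes were taken as a list of 24 genes, 16 of them tested. 9 were lower in Mex3a+ cells and 1 was higher, with a median of -0.31. With the mouse as a block 9 were lower and 2 higher. Slc26a3, which exchanges chloride for bicarbonate at the colonocyte surface, averaged 4.47 and 4.71 in the Mex3a+ populations, against 7.84 and 9.09 in the Mex3a- populations (difference -3.88, SE 0.29, limma adjusted p = 9.79e-06). The monocarboxylate carrier Slc16a1 (-1.32), the sulphate transporter Slc26a2 (-1.10) and the scaffold Slc9a3r1 (-0.61) were lower too, at a limma adjusted p of 0.0027 or less. The sodium and proton exchanger Slc9a3 was higher and averaged 7.44 and 7.80 in the Mex3a+ populations, against 6.30 and 7.02 in the Mex3a- populations (0.96, SE 0.32, limma adjusted p = 0.0463). With the block Slc4a3, an anion exchanger gene, was higher too (0.55, limma adjusted p = 0.00523). Both were named after their values were seen.

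Genes of salt and water handling (18 listed, 16 tested) had 9 lower and 0 higher, with a median of -0.60, and 11 lower and 1 higher with the block. Of all genes, 17.3% were called lower and 9.91% higher, and with the block 5192 genes were called, 61.5% of them lower. The water channel Aqp4 had a difference of -3.68 (SE 0.23), the gut peptide guanylin gene Guca2a -1.39 (SE 0.20), its receptor Gucy2c -0.60 (SE 0.10) and Clca1, a secreted goblet cell protein, -2.85 (SE 0.62), each at a limma adjusted p of 0.00559 or less. As Car9 is a HIF target, 28 other HIF targets were followed, of which 25 were tested. Beside the same shares of all genes, 9 were lower and 2 higher, with a median of -0.17. With the block 12 were lower and 4 higher. The largest fall among them was Hk2, the hexokinase, at -0.70 (SE 0.10), against -1.58 for Car9. Higd1a (-0.66), Ero1a (-0.63) and the lactate dehydrogenase gene Ldha (-0.31) were also lower, at a limma adjusted p of 0.00109 or less. Bnip3 (0.49) and Pfkfb3 (0.41) were higher, and both were named after their values were seen. In the Lgr5 average, limma called 0 genes of these 3 lists and 0.0397% of all genes. An unadjusted limma p under 0.05 was found for 1 bicarbonate or proton transport gene, 0 salt and water genes and 5 HIF targets. The share over all genes was 6.22%. With the block, 4 were lower in Lgr5+ cells, where 0.627% of all genes were called lower. These 4 were Slc9a3 (-0.54), Slc26a3 (-0.74), Slc16a3 (-0.26) and Bnip3 (-0.39), at a limma adjusted p between 0.00769 and 0.0377.

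**Figure D4:**
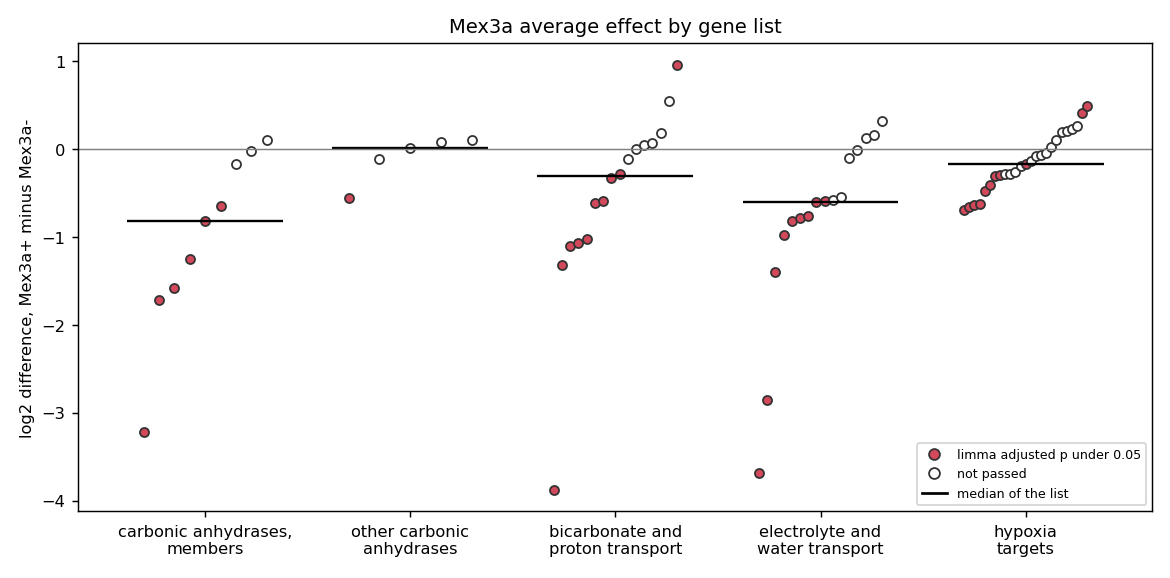
Log2 difference, Mex3a+ minus Mex3a-, of each tested gene of 5 lists, ordered within a list. Filled points passed at a limma adjusted p under 0.05, open points did not and bars are list medians. The medians are -0.81 for the 9 members and 0.01 for the other carbonic anhydrases. The split between these lists was made with earlier results of these data known. They are -0.31 for bicarbonate and proton transport, -0.60 for electrolyte and water transport and -0.17 for HIF targets.

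Markers of cell types that a pool could hold were read beside these results. Of 8 epithelial markers 7 were lower in Mex3a+ cells, while 17.3% of all genes were. Among the 7 were the brush border gene Vil1 (-1.06, SE 0.11), the intestinal factor Cdx2 (-1.11, SE 0.17), Cldn7 (-0.28) and Krt19 (-0.59). Krt18 went the other way (0.11, limma adjusted p = 0.238) and was higher with the mouse as a block (limma adjusted p = 0.0293). The mean log2 signal of the 8 markers per array was 9.99 to 10.27 in Mex3a+ cells and 10.50 to 10.84 in Mex3a- cells. Of 5 tested myeloid markers Cd14 (-1.02, SE 0.14) and Tyrobp (-0.84, SE 0.26) were lower, while Ptprc, Adgre1 and Itgam were below the filter. The myeloid list averaged 5.43 to 5.57 in Mex3a+ arrays and 5.46 to 6.0004 in Mex3a- arrays. The part of either list in the falls of the carbonic anhydrases was not tested. Red cells are rich in carbonic anhydrase, and of 7 erythroid markers limma called 0 (1 at an unadjusted p under 0.05), with array means of 6.07 to 7.25 in Mex3a+ cells and 5.88 to 7.002 in Mex3a- cells. Globin signal was present in all populations, where Hba-a2 averaged 10.42 to 10.69 (difference 0.17, SE 0.09). Hbb-b2 had a difference of 0.52 with an SE of 0.82, so its test is imprecise. The part of red cells in the falls was not tested. Limma also called 0 of 6 endothelial markers, 0 of 4 fibroblast markers and 0 of 4 adipocyte and muscle markers, with 1, 0 and 0 of them at an unadjusted p under 0.05. In the block fit the erythroid gene Alas2 (0.20, limma adjusted p = 0.0437) and the endothelial gene Cdh5 (0.30, limma adjusted p = 0.0458) were higher in Mex3a+ cells, and the muscle gene Myl1 was lower (-0.37, limma adjusted p = 0.0345).

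The genes whose centred profiles over the 12 arrays lay nearest to each fallen member were sought by the root mean square difference in log2 units. For Car1 the nearest were Dmbt1 (0.524), a mucosal defence gene, Ceacam20 (0.650), an adhesion gene, and Fabp2 (0.697), which encodes intestinal fatty acid binding protein. The profile of Car1 itself had an SD of 1.87. For Car9 they were Plek2 (0.128), Nlrx1 (0.130) and Ctsc (0.159), the cathepsin C gene. Car13 shared Ctsc (0.199) with Car9, after Cnnm4 (0.184), a magnesium transporter gene, and Tmem238l (0.192). The nearest to Car4 was the zinc transporter gene Slc39a5 (0.139), to Car2 Tgoln1 (0.206) and to Car12 Ostf1 (0.104). These 12 arrays share 1 normalization, and the measure is a description.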

How the data were processed

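The authors deposited log2 signals for 45141 probe sets (RMA, per the submitters' processing notes; software and options not given in the sources used here), which were used unchanged. Per the labels, 25 ng of total RNA was amplified and 8 µg of cDNA labelled. GEO's platform table gives 1 symbol to 28898 probe sets, and those with several (551) or none (15692, including 104 controls) were left out. Of 17097 symbols 7180 had several probe sets, of which the brightest on average was tested. All probe sets of the members are reported. The filter level of 4.40 is the 40th percentile of all values.

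Groups were fitted with limma 3.58.1 in R 4.3.3 (1 mean per population, intensity trend, 2-sided tests), with Benjamini-Hochberg adjustment over 12595 genes and a threshold of 0.05. Errors are limma's standard errors unless SD is written. The mouse number in the sample titles pairs the arrays: once group means were removed, arrays of 1 mouse correlated at 0.349 to 0.694 (18 pairs) and those of different mice at -0.691 to 0.152 (48 pairs). A fit with the mouse as a replicate block was therefore an alternative, beside other filters, normalizations, probe set rules, no trend, array weights and leaving out a mouse or an array. The main fit left out this pairing, so its errors include the spread between mice. Leaving out mice with the block was added after seeing the data. On simulated data for the Mex3a average over 12595 genes, 73.1% of changes of 0.5 (log2), 95.5% of 1 and 100% of 2 were recovered, with 2 false calls. The block fit recovered 85.1%, 100% and 100%, with 16 false calls. Only 67, 67 and 66 genes were changed at these sizes. Far more genes, 3422, were called in the data, so the rates there can differ.

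The members and lists were chosen with earlier results of these data known. Named genes are the family, Mex3a, Lgr5, up to 4 genes of smallest p per list, list members called in the Lgr5 average, and up to 3 nearest profiles per called member. Slc9a3, Slc4a3, Slc16a3, Bnip3, Pfkfb3, Krt18 and the myeloid markers below the filter were named outside this rule. The number of arrays limits the precision. matplotlib 3.10.9 and Python 3.11.15 drew the figures.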

Additional observations from a re-analysis of the deposited data

How the results depend on the processing

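The 6 carbonic anhydrase calls of the Mex3a average (Car1, Car2, Car4, Car9, Car12 and Car13) kept their direction and side of the threshold under all 27 alternatives. With the mouse as a replicate block, the count of called members was 2 for the Lgr5 average, 1 for the Lgr5 difference in Mex3a+ cells, 1 in Mex3a- cells and 6 for the single positive populations, and beyond these it changed the call of no member other than Car4 in Lgr5+ cells. The Lgr5 difference in Mex3a+ cells also had 1 call with no filter, with further quantile normalization and with array weights, and the single positive populations had 5 with array weights. When a mouse or an array was left out, with or without the block, counts ranged from 6 to 7 for the Mex3a average, 1 to 6 for the Mex3a difference in Lgr5+ cells, 2 to 7 in Lgr5- cells, 0 to 2 for the Lgr5 average, 0 to 1 for the Lgr5 difference in either Mex3a state and 0 to 6 for the single positive populations. These fits have fewer arrays. Over all genes, the Mex3a average had 3422 calls with all arrays. It had 1034 without mouse MKL347, 3484 without MKL358 and 1546 without MKL367. The Lgr5 difference of Car7 became -0.0013 with further quantile normalization, -0.0046 with the mean of probe sets and -0.017 with array weights, and the cause was not tested. Without single mice or arrays it ranged from -0.086 to 0.11, that of Car8 from -0.11 to 0.00092, and the Mex3a difference of Car3 from -0.11 to 0.052; none of these passed the test. Of all Mex3a average calls over the array, 63.5% were lower, against 53.5% after quantile normalization and 70.7% after centring each array on the median of all probe sets.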
